A study of Mus musculus with 4 samples.

Results

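Collagens, laminins and fibronectin are proteins of the extracellular matrix, and integrins are the receptors through which cells hold on to them. Among the Zeb1 peaks of mouse embryonic stem cells (mESC), those assigned to these genes were chosen by gene symbol alone: a collagen chain (Col, a number, a, a number), a laminin chain (Lama, Lamb or Lamc with a digit), an integrin subunit (Itga or Itgb ending in a number or in v, x, m, l, e or d) or Fn1, with symbols containing "bp" dropped. The rule found 69 of the 17435 peaks of the deposited list, assigned to 52 genes of the 12271 named in the list. They were 36 collagen, 10 laminin, 21 integrin and 2 fibronectin peaks. The platelet subunit Itga2b ends in a letter outside the rule and was not counted. The cells were D3 mESC, a single established line, grown in GS, the ground state medium, which holds LIF (20 ng/mL) beside PD0325901 (1 μM) and CHIR99021 (3 μM), inhibitors of MEK and of GSK-3. Chromatin cross-linked with 1% formaldehyde and sheared to about 200 bp was precipitated with 8 μg of an anti-Zeb1 antibody and sequenced on the Ion Torrent platform, in 3 Zeb1 ChIP libraries, and 1 input library without the antibody gave the background. Only peaks seen in 2 or more of the ChIP libraries were in the list. Each has a mean of its reads in the ChIP (treatment) and in the input and a mean enrichment, which is the treatment to input ratio after normalization for mapped reads. There is no value per library, so no SD stands beside a value, and the counts and medians of these genes are described beside those of all peaks or all genes without a test. The depth of each library is unknown from the list.

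Fibrillar collagens build the fibres of connective tissue, whereas the network of collagen IV and the laminin trimers, each of an alpha, a beta and a gamma chain, make up the basement membrane, the sheet on which epithelia and endothelia rest and one of the earliest matrices of the embryo. Integrins are pairs of an alpha and a beta subunit, and the alpha subunit largely sets whether the receptor holds collagen, laminin or the RGD motif of fibronectin. Zeb1 is a zinc finger repressor that binds E-box sequences and is best known from the epithelial-to-mesenchymal transition, in which cells leave the basement membrane and change their matrix and integrins.

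Promoters with and without a peak are shown first, as the 200 bases before the TSS in GRCm38.p6, the assembly of mm10, with each CpG in capitals. The RefSeq promoter table of this assembly held 57 of the 81 family genes, and those shown are among them. None of these 5 stretches overlapped an exon or a gene of the reference. The upper 3 belong to the genes with the highest enrichment among the 69 peaks, and the lower 2 to major fibrillar collagen chains, chosen after their values were seen from the 41 family genes without a peak within 5 kb of the TSS. They are Itga5 (chr15:103366792-103366991, minus strand), Itgb1 (chr8:128685454-128685653, plus strand), Col6a2 (chr10:76623631-76623830, minus strand), Col1a2 (chr6:4505418-4505617, plus strand) and Col3a1 (chr1:45311338-45311537, plus strand).
Itga5: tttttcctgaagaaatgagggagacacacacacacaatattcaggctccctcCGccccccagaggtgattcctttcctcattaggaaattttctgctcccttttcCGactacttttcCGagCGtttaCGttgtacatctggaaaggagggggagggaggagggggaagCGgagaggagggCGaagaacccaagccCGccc
Itgb1: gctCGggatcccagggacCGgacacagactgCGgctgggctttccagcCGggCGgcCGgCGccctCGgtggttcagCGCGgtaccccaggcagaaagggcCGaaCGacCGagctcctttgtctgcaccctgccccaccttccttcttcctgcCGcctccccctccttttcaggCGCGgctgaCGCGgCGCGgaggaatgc
Col6a2: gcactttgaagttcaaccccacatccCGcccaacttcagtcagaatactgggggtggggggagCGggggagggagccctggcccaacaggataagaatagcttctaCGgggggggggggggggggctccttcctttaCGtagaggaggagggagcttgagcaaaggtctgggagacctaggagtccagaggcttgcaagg
Col1a2: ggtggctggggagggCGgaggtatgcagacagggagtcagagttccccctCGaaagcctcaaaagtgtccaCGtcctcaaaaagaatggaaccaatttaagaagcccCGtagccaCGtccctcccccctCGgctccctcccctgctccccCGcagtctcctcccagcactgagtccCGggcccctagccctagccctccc
Col3a1: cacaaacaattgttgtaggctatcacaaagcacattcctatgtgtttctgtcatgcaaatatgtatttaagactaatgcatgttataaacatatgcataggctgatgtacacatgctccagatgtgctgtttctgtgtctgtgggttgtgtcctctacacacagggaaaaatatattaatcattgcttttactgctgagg

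The stretch before Itgb1, the common beta subunit, held 20 CpG, that of Itga5 8 and that of Col6a2 4, whereas those of Col1a2 and Col3a1 held 8 and 0. Over all 21774 protein-coding genes the median was 8, with 15 in genes with a promoter peak and 3 in genes without. The same stretches were searched on both strands for the Zeb1 motif of 8 bases, spelled CNCACCTG, CNTACCTG, TNCACCTG or TNTACCTG, and for the E-box CACCTG, which is part of the forms with C before ACCTG. None of the 5 stretches held either of them. Of all protein-coding genes, 10.8% had the 8-base motif and 13.2% the E-box in the 200 bases before the TSS. The search describes letters, not contacts.

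Of the 69 peaks, 59.4% (41 peaks; 95% Wilson interval 47.6 to 70.2%) were centred within 5 kb of the TSS of the assigned gene, against 61.4% of the whole list. The interval covers counting error only, as do the others below. Enrichment over input had a median of 5.75 among the 69 peaks, with quartiles of 4.65 and 7.9, and of 6.5 over all peaks, with quartiles of 4.91 and 8.53. The 41 promoter peaks had a median enrichment of 6.84, close to the 6.74 of all promoter peaks. The 28 peaks farther away had a median of 4.75, and all such peaks of the list one of 6. Only 3 of these 28, or 10.7%, exceeded the median of the whole list, as did 43.3% of all such peaks. The 3 were the peaks of Col8a2, Col16a1 and Lama5 at 10.9, 9.65 and 6.8. The 28 hold only peaks that carry the name of a family gene. Another 12 peaks were centred inside family genes under the name of another gene. They are not counted here, and their enrichments ran from 3.65 in Lama5 to 15.04 in Col8a2. Treatment reads per peak had a median of 45.4, against 47.4 in the list, and input reads one of 15 against 16. Peak length had a median of 1800 bp against 1850 bp.

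**Figure D1:**
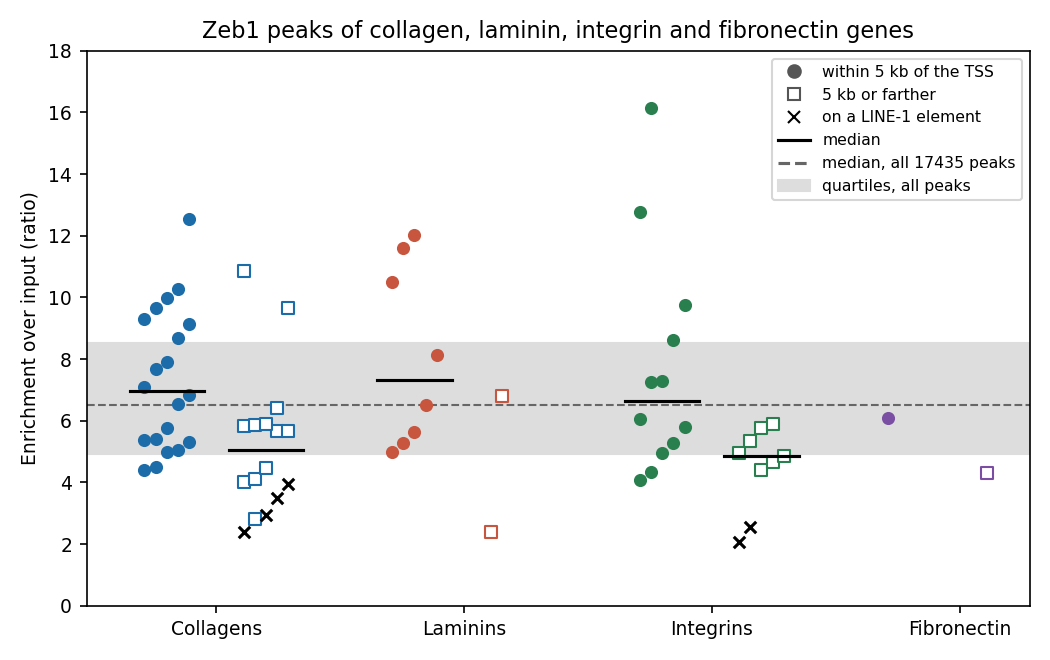
Enrichment over input of each of the 69 peaks by gene family, with filled circles for peaks within 5 kb of the TSS, open squares for peaks farther away, crosses for peaks on LINE-1 elements, black lines at the medians and the list's quartiles in grey. The promoter peaks of Itga5 (16.2) and Itgb1 (12.8) lie highest, and the 6 LINE-1 peaks lie between 2.05 and 3.96.

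The peaks with the highest enrichment were those at Itga5 (16.2), Itgb1 (12.8), Col6a2 (12.6), Lama3 (12.01) and Lamc3 (11.6), all promoter peaks, centred 79 to 248 bp from the TSS. The Itga5 peak exceeded 97.5% of all peaks in the list and the Lamc3 peak 91.7%. By treatment reads the order was another, with Col4a2 (150.6 reads), Col13a1 (118.4), Col27a1 (92.8), Col11a2 (89.9) and Col8a2 (89) first. The longest peaks were those of Itgb4 (4050 bp), Col13a1 (3850 bp), Col27a1 (3750 bp), and Col11a2 and Lama5 (3550 bp each). Per kb of peak, Col4a2 led with 47.8 treatment reads, followed by Lamc3 with 41.1, and the median over all peaks was 25.1.

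The reference annotation holds 81 genes that meet the rule. Of these, 52 had an assigned peak at any distance, where 51.4% of all 21774 protein-coding genes had one, and 40, or 49.4% (95% Wilson interval 38.8 to 60.05%), had a peak within 5 kb of the TSS. Over all protein-coding genes the share was 43.5%. When a peak centre within 5 kb of any reference TSS was counted, whatever gene the authors had assigned, 41 of the 81 genes and 50.2% of all protein-coding genes had one. Laminins had a promoter peak in 8 of 11 genes, integrins in 12 of 25 and collagens in 19 of 44. Another 12 genes had only peaks farther away, and 29 genes had none.

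**Figure D2:**
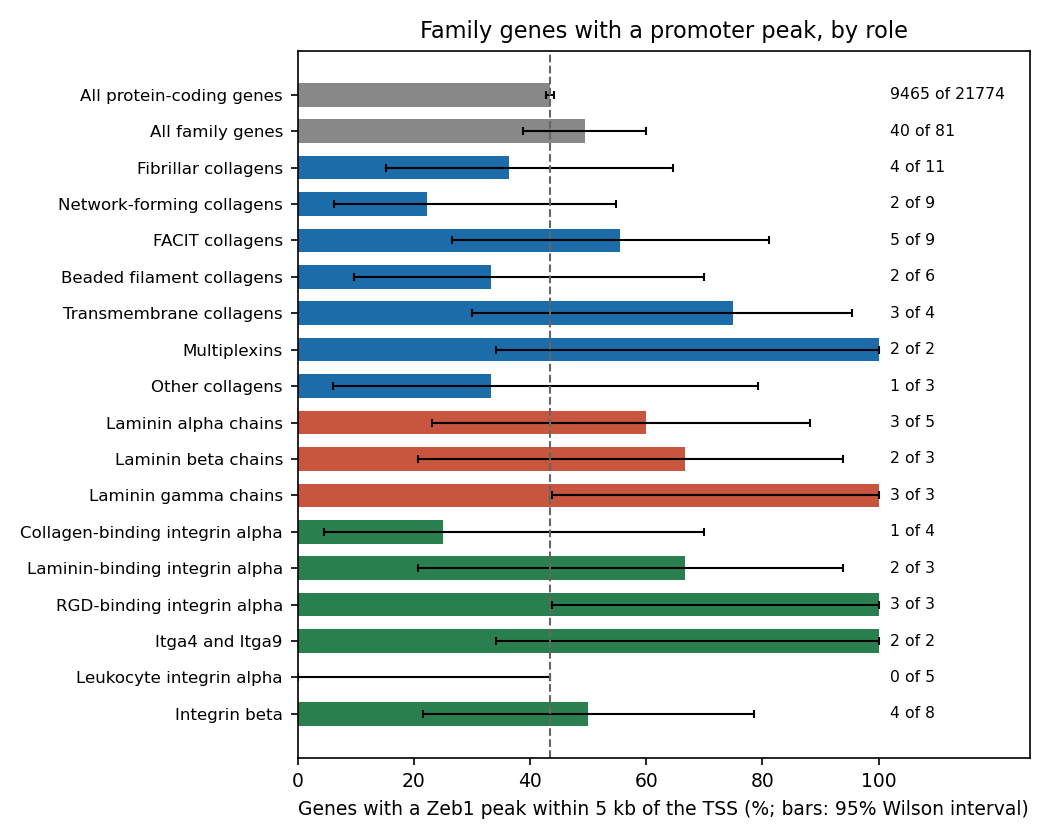
Percent of genes with a Zeb1 peak within 5 kb of the TSS, by role, with 95% Wilson intervals and the number of genes at the right. The dashed line marks the 43.5% of all protein-coding genes, and the groups run from 0 of 5 leukocyte integrin alpha subunits to 3 of 3 RGD-binding alpha subunits.

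Among the 11 fibrillar collagen chains, 4 had a promoter peak, and these did not include the chains of collagens I and III, the main fibres of skin, bone and vessel wall. Col2a1, the chain of cartilage collagen, had a peak of enrichment 10.3 centred in intron 1 of 52 (chr15:98002751-98005500, 64.4 treatment and 13 input reads) and a weaker one of 4.4 in the same intron, 3074 bp from the TSS. Col5a1, whose product starts the assembly of collagen I fibres, had a peak of 9.66 over the 5´ UTR of exon 1 (chr2:27885601-27887700, 81.3 treatment and 18.6 input reads). Col27a1 and Col11a2, which are also collagens of cartilage, had promoter peaks of 9.97 and 8.67. Col1a1, by contrast, had peaks of 5.9 and 6.4 only in intergenic sequence, 7345 and 20445 bp upstream of the TSS. The peaks assigned to Col1a2 (enrichment 2.4) and Col3a1 (3.5) lay on LINE-1 elements 186497 and 213688 bp from the TSS, and that of Col24a1 (3.96) on a LINE-1 element in intron 19 of 59. No peak was assigned to Col5a2, Col5a3 or Col11a1.

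Collagen IV, the network former of basement membranes, is encoded by 3 head-to-head pairs of genes, and only the pair of Col4a1 and Col4a2 carried a peak at its shared promoter. The TSSs of Col4a1 and Col4a2 are 21 bp apart on opposite strands, and a peak of 3150 bp (chr8:11311451-11314600) covered both. It had 150.6 treatment and 47.7 input reads and an enrichment of 7.1, and its treatment reads exceeded 98.5% of all peaks. It is centred in the 5´ UTR of exon 1 of Col4a2 and carries the name of that gene. Col4a1 thus counts above as a gene without a promoter peak, although its TSS lies 199 bp from the peak centre. The peak that carries the name of Col4a1 was centred 124926 bp downstream of its TSS, past the end of the gene, with an enrichment of 5.83. For Col4a3 and Col4a4, whose TSSs are 72 bp apart, the nearest peak centre was 138065 bp from the point midway between them, at the gene Mff. For Col4a5 and Col4a6 on Chr. X, 1343 bp apart, it was 631072 bp from the point between their TSSs.

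The multiplexins Col15a1 and Col18a1, whose chains sit in basement membranes and release anti-angiogenic fragments such as endostatin, both had a promoter peak. That of Col15a1 had an enrichment of 7.9 and lay in exon 2 of 40, and that of Col18a1 had one of 5.41 and was centred 20 bp upstream of the TSS. Among the other network formers, Col8a2 had 3 peaks. The weakest (4.5) was at the TSS and the strongest (10.9; chr4:126299651-126302950, 89 treatment and 16.3 input reads) was in intron 2 of 3, 14506 bp downstream. Col8a1 and Col10a1 had none.

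The other collagens with a promoter peak were 5 of 9 FACIT chains, which sit on the surface of fibrils (Col9a2, Col9a3, Col12a1, Col16a1 and Col19a1, from 5.05 to 9.29), 3 of 4 transmembrane collagens (Col13a1, Col23a1 and Col25a1, from 4.99 to 6.84), Col26a1 (7.69) and 2 of 6 beaded filament chains. Of the latter, Col6a2 had the highest enrichment among the collagen peaks, 12.6, with 38 treatment and 6 input reads over the 5´ UTR of exon 1 (chr10:76622651-76624000), and Col6a6 had a peak of 5.39. Col17a1, the transmembrane collagen of hemidesmosomes, had only a peak of 2.8 in intron 17 of 53, 23092 bp downstream. Col6a1, which pairs with Col6a2 in collagen VI, had a single assigned peak of 4, 58806 bp upstream in intron 10 of Pcbp3, and that of Col6a3 (4.1) lay in coding exon 40 of 44. The promoter peak of Col9a3 (5.05) was 3897 bp upstream in the last exon of the neighbouring gene Ogfr. The stronger peak of Col16a1 (9.65) was 25790 bp upstream in an intron of Adgrb2, whereas its promoter peak had 5.31. Besides Col8a1 and Col10a1, no peak was assigned to Col4a3, Col4a4, Col4a5, Col4a6, Col6a4, Col6a5, Col7a1, Col9a1, Col14a1, Col20a1, Col22a1 and Col28a1.

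The laminins with a promoter peak included Lama1, Lama3, Lama5, Lamb1, Lamb2, Lamc1 and Lamc3, whereas Lama2, Lama4 and Lamb3 had no assigned peak. The 3 chains of the early embryonic laminin, Lama1, Lamb1 and Lamc1, were thus all among those with one. Their enrichments were 5.27 in exon 1 of Lama1, 10.5 in intron 1 of Lamb1 (chr12:31264451-31267100, 65 treatment and 13 input reads) and 5.63 over the 5´ UTR of Lamc1. Lama3, an alpha chain of the epidermal basement membrane, had a peak of 12.01 (47.3 treatment and 9 input reads) centred 149 bp upstream. Lamc3 had 11.6 over coding exon 1 (chr2:31886551-31888200, 67.9 treatment and 11.9 input reads). Lamb2 is the beta chain of laminins at the kidney filter and the neuromuscular junction, and its peak, of enrichment 5, was the most distant of the 8, at 1012 bp upstream. Lama5, the alpha chain of most adult basement membranes, had 3 assigned peaks. They had an enrichment of 6.5 at the TSS over exon 1 of 79 (chr2:180223901-180227450), 6.8 in intron 2 and 2.4 at 8566 bp upstream.

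Fn1 encodes fibronectin, the main RGD ligand of integrins. Its promoter peak (chr1:71652201-71653900) had 55 treatment and 17.5 input reads and was centred in the 5´ UTR of exon 1, 184 bp from the TSS. The enrichment of this peak, 6.1, was below the median of the list, whereas its 32.4 treatment reads per kb exceeded 79.1% of all peaks. A further peak of 4.3 lay in intron 27 of 44 on a B1 element.

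By enrichment, the subunits that bind fibronectin ranged from the highest of the 69 peaks to the lowest of the promoter peaks. Their treatment reads per kb of peak were closer, with 27.9 at Itga5, 32.2 at Itgb1 and 28.4 at Itgav. Itga5 and Itgb1, which pair as its classical receptor, had the highest enrichments of all 69 peaks. The Itga5 peak (chr15:103365401-103367600) had 61.4 treatment and 8.43 input reads and was centred in coding exon 1 of 30, and the Itgb1 peak (chr8:128684851-128686850) had 64.4 treatment and 10.4 input reads over the 5´ UTR of exon 1 of 16. Among the RGD-binding alpha subunits, Itga8 had a promoter peak of 7.29 and Itgav one of 4.07, the lowest of the 41 promoter peaks. The Itgav peak had 55.4 treatment reads but 31.1 input reads. Of its beta partners, Itgb3, also the beta subunit of the platelet receptor, had 8.61 at the TSS and Itgb5 5.79, and no peak was assigned to Itgb6 or Itgb8.

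Laminin-binding Itga6 had a peak of 7.26 in coding exon 1 of 25 and Itga3 one of 6.05, whereas the only peak of Itga7 was in intron 4 of 24, 7512 bp downstream, with 4.4. Itgb4, which pairs with Itga6 in hemidesmosomes, had a peak of 5.27 at the TSS and one of 5.35 over coding exon 18 of 40. The latter was the longest of the 69. Of the collagen-binding subunits only Itga11 had a promoter peak (4.95). The peak assigned to Itga1 had the lowest enrichment of all 69 (2.05; 33.5 treatment and 31 input reads) and lay on a LINE-1 element 248761 bp from the TSS, and Itga2 and Itga10 had no assigned peak. Itga4 and Itga9, which bind fibronectin and other ligands, had promoter peaks of 9.76 and 4.33. None of the 5 leukocyte subunits had a promoter peak. Itgad had a peak of 4.95 at 20021 bp upstream, Itgae, Itgal, Itgam and Itgax had none assigned, and neither had Itgb2, the partner of most of them. Itgb7 had a peak of 5.9 in intron 4 of 14.

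Within 1 kb downstream of the TSS were the centres of 12 of 12 integrin promoter peaks (95% Wilson interval 75.8 to 100%), 13 of 20 of those of collagens and 6 of 8 of those of laminins. In the whole list, 64.7% of promoter peaks lay there. Over all 41 promoter peaks it was 32, or 78.0% (63.3 to 88.0%). In all, 34 were centred downstream and 7 upstream of the TSS, at a median distance of 184 bp, against 235 bp in the list. By the reference annotation, the centres of the 69 peaks lay in 5´ UTRs (17), coding exons (11), introns (24) and intergenic sequence (17). No count of these classes over all peaks stands beside them, so they are not compared with the list.

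**Figure D3:**
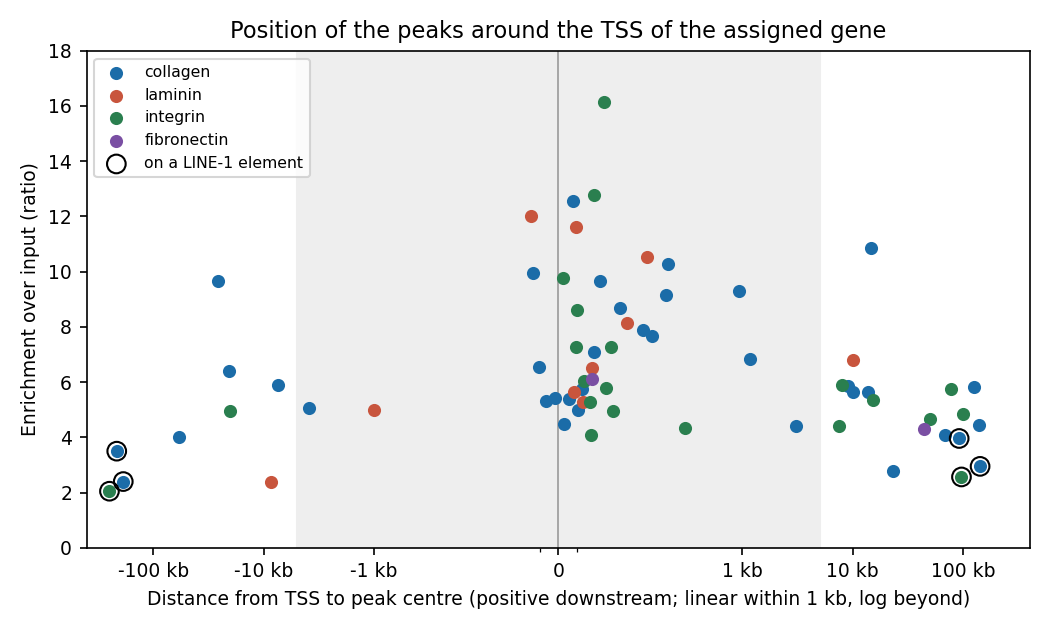
Enrichment over input of the 69 peaks against how far in bp the peak was centred from the TSS, positive downstream, on an axis that is linear within 1 kb and logarithmic beyond, with the 5 kb on either side shaded. All 12 integrin promoter peaks are centred 24 to 691 bp downstream, and the circled LINE-1 peaks are all more than 50 kb away.

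Of the 52 genes, 13 had 2 or more peaks, or 25%, against 26.9% of the genes in the list. Itgb3 had 4, Col8a2 and Lama5 had 3, and 10 genes had 2, namely Col1a1, Col2a1, Col6a2, Col9a2, Col16a1, Col19a1, Col23a1, Fn1, Itgb1 and Itgb4. The additional Itgb3 peaks had 4.65 in intron 10 of 14, and 5.75 and 4.84 beyond the gene at 77700 and 100025 bp, so that the promoter peak was the strongest of the 4. More than 50 kb from the TSS were 13 of the 69 peaks, or 18.8%, against 15.8% of the list. Of these 13, 6 lay on LINE-1 elements, or 8.70% of the 69 peaks against 14.2% of the list, with a median enrichment of 2.76, whereas all 2483 LINE-1 peaks of the list had a median of 5.3. They were assigned to Col1a2, Col3a1, Col19a1, Col24a1, Itga1 and Itgb1. For Col1a2, Col3a1, Col24a1 and Itga1 this was the only assigned peak.

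The CpG content of the promoter, a property the choice of genes did not use, was higher in genes with a promoter peak. Within 500 bp on either side of the TSS, the CpG observed/expected ratio had a median of 0.666 in the 40 genes with a promoter peak and of 0.309 in the 41 without. Over all protein-coding genes the medians were 0.751 and 0.289. A ratio of at least 0.6 was found in 29 of the 81 genes, and 28 of these 29, or 96.6% (95% Wilson interval 82.8 to 99.4%), had a promoter peak, against 71.0% of the 10490 protein-coding genes with such a promoter. The exception was Col4a1, whose TSS lies inside the peak assigned to Col4a2. Counted by reference TSSs, the share was 29 of 29 (88.3 to 100%), against 80.5% of all. Below 0.6, 12 of 52 genes had a promoter peak, or 23.1% (13.7 to 36.1%), against 17.8%. These 12 included Col6a2 (ratio 0.427), Lama3 (0.539), Itga4 (0.465), Col11a2 (0.493) and Lamb2 (0.267). The promoters of Col1a1 (0.301), Col1a2 (0.42) and Col3a1 (0.179) were CpG-poor, and that of Itgb1 (0.93) had the highest ratio of the 81. With a limit of 0.5, 33 of 39 genes had a promoter peak, against 68.3% of all genes, and with 0.7, 16 of 17, against 73.5%. By reference TSSs, it was 34 of 39 (73.3 to 94.4%) with 0.5, against 77.4% of all genes. With 0.7 it was 17 of 17 (81.6 to 100%), against 83.4%. The intervals by reference TSSs at 0.5 and 0.7 thus include the share of all genes. The analysis of CpG content was chosen after its values were seen.

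**Figure D4:**
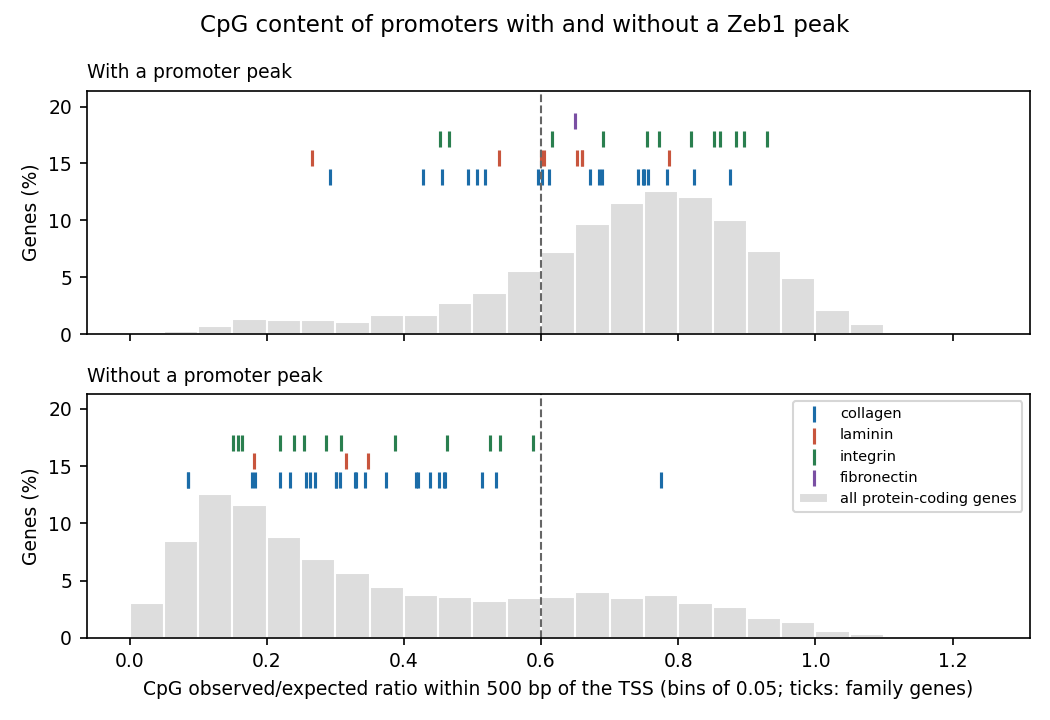
CpG observed/expected ratio within 500 bp of the TSS for all protein-coding genes (grey, percent of genes in bins of 0.05) and for each family gene (ticks), with a promoter peak above and without below. To the right of the dashed line at 0.6 lie 28 family genes with a promoter peak and 1 without, Col4a1.

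The 8-base Zeb1 motif was found on either strand in 51 of the 69 peaks, or 73.9% (95% Wilson interval 62.5 to 82.8%), against 76.8% of all peaks, and the E-box in 59, or 85.5%, against 82.1%. Of the peaks with the highest enrichment, those of Itga5 and Itgb1 held the E-box once each and no 8-base motif, that of Lamc3 held the motif 3 times. The promoter peaks of Itga4, Itgav, Fn1 and Col27a1 and the weaker promoter peak of Col2a1 held neither the motif nor the E-box. The longest peak, of Itgb4, held 9. In the central 200 bp of the peak, a match was found for 12 of 69, or 17.4%, against 16.6% of the list. For 5 of these 12, those with an enrichment above the median of the list and an entry in the promoter table, the match nearest the centre is shown in a window of 30 bases, with the motif in capitals, on the strand that reads it as ACCTG. These are Col6a2 (chr10:76623235-76623264, plus strand), Col8a2 (chr4:126301290-126301319, plus strand), Col9a2 (chr4:121040487-121040516, plus strand), Col11a2 (chr17:34039723-34039752, minus strand) and Col15a1 (chr4:47208521-47208550, minus strand).
Col6a2: atgcgaagaagCTTACCTGgcttggagaag
Col8a2: cagcgcctcctCCCACCTGggtctggacgc
Col9a2: cagttcaccgcTATACCTGttgttggttag
Col11a2: gcaggactcctCTTACCTGcccatcccggg
Col15a1: agcggctgtggCTTACCTGtcgcagcgcgg
The match of Col8a2 was centred 5 bp from the centre of its intronic peak, and the others were 37 to 75 bp from theirs.

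Genes that act with these families were put into 4 lists, chosen with earlier results of these data known. Their shares describe the listed genes only. Of 26 enzymes and chaperones of collagen maturation, 19 had a promoter peak (73.1%; 95% Wilson interval 53.9 to 86.3%), against 43.5% of all protein-coding genes. The cross-linking enzyme Lox had the highest value, 16.5, followed by Loxl1 (11.6), the procollagen protease Adamts3 (11.3) and the lysyl hydroxylase Plod3 (9.69). Serpinh1, the collagen chaperone, had 7.15, whereas Loxl2, Loxl3, P4ha3, Ppib, Pcolce and Adamts14 had no assigned peak and Loxl4 only a distant one. Of 16 partners of the basement membrane, 11 had a promoter peak (68.8%; 44.4 to 85.8%). Among them were Pxdn (13.8), which cross-links collagen IV, and Hspg2 (5.02), which encodes perlecan. The nidogens Nid1 and Nid2, which tie laminin to collagen IV, had none. Of 25 adhesion proteins on the inner side of integrins, 16 had a promoter peak (64%; 44.5 to 79.8%). Ilk and Crk led with 9.59 each, and the talin gene Tln1 had 5.85. Of 25 other matrix glycoproteins and receptors, 11 had a promoter peak (44%; 26.7 to 62.9%), close to the 43.5% of all genes. The highest were Tnxb (15.2), the collagen receptor Ddr1 (14.0), Sdc1 (13.5), Fbn1 (11.6) and Eln (11.2). The 14 without one included Vtn, Tnc, Thbs1, Spp1, Cd44, Dcn and Vcan. The median CpG ratio of the promoters was 0.769 in the maturation list, 0.655 in the basement membrane list, 0.703 in the adhesion list, 0.456 in the last list and 0.465 in the 81 family genes, and the 3 lists with the larger shares of promoter peaks were also those with the higher CpG ratios. The part of CpG content in these counts was not tested.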

How the data were processed

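The deposited list of unified Zeb1 peaks was used as the authors made it. They drew the same number of Ion Torrent reads per sample at random, aligned them to mm10 with STAR (2.4.2a per the submitters' processing notes), removed duplicates with Picard (1.136), called peaks against the input with PeakRanger, kept those found in 2 or more ChIP libraries, unified them, counted reads again and annotated with Homer (4.7). The deposited read columns are a signal, the mean treatment or input reads of a peak, and carry no value per library. Among the 69 peaks the mean treatment reads were a whole number in 20, a whole number over 2 in 17, over 5 in 8 and over 7 in 24 (within 0.003 reads), whereas the study's methods describe averages of peak values per sample. Divisors of 5 and 7 cannot come from means of whole reads over 3 libraries, and they are not explained in the sources used here. The enrichment is a ratio, treatment to input, that the authors scaled by mapped reads. No peak of the list has under 20 treatment reads or an enrichment under 2. The deposited p-value is 0 in every peak and was not used. The distance to the TSS is a score of the authors' annotation in bp; for 67 of the 69 peaks it was within 100 bp of the distance to the nearest reference TSS of the same gene, with a positive sign downstream, the opposite of the legend in the list.

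Genes, 45756 curated RefSeq transcripts and sequence came from GRCm38.p6, and 12246 of the 12271 assigned Entrez IDs were found there. A promoter peak is one centred less than 5 kb from the TSS of the assigned gene. CpG observed/expected is the number of CpG times the length over the product of C and G, in 1000 bp around the TSS of the main transcript. Named genes are Fn1, Col1a1, Col1a2, Col2a1, Col3a1, Col5a1, the basement membrane collagens, every laminin chain with a peak, Itgb1, Itgb3, Itgb4, Itgb5, Itga1, Itga2, Itga3, Itga5, Itga6, Itga7, Itgav, the genes of the top 5 peaks by enrichment, reads and length, the 5 genes with most peaks (after Itgb3, Col8a2 and Lama5 all others tie at 2) and every family gene without a peak; other genes, the sequences and the analysis of CpG content were chosen after their values were seen. One item that falls under this rule is not reported here. The members and lists were chosen with earlier results of these data known. The computation used Python 3.11.15, NumPy 2.4.6, pandas 2.3.3, SciPy 1.17.1, pysam 0.24.0 and Matplotlib 3.10.9, and the motif search and intervals were first tested on simulated data. Alternatives were other distances, TSSs, enrichment limits, motif forms and the merging of neighbouring peaks.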

Additional observations from a re-analysis of the deposited data

How the results depend on the processing

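Under 29 alternatives of 7 results, 8 of them chosen after seeing the data, 24 values stayed within 1.5 times a count or within the 95% interval of a share or median. With an enrichment of at least 5, 74.5% of the remaining peaks were within 5 kb of the TSS, since 35 of 41 promoter peaks but 12 of 28 distant peaks remained, and the share in the whole list was then 67.1%. Without this limit the share of the 69 peaks was 59.4%, and without LINE-1 peaks it was 65.1%, against 71.3% in the list. The median enrichment was 6.84 in promoter peaks alone and 5.75 in all 69. The share of peaks with the Zeb1 motif, 73.9%, was 85.5% for the shorter E-box, 47.8% with the forward strand alone searched and 17.4% with only the 200 bp at the centre searched, and in the whole list these were 82.1%, 54.4% and 16.6%. The share of family genes with a promoter peak ranged from 43.2% (enrichment of at least 5) to 53.1% (10 kb), and that of all protein-coding genes from 35.7% to 50.2% (any reference TSS). Against any reference TSS the shares were 50.6% and 50.2%, in place of 49.4% and 43.5% by assigned gene. The peaks of Itga2b would raise the count to 71. Leaving out each ChIP library was not run, because the list holds means. No paired analysis was possible because the results come from no test and the list carries no values per library. Peaks of few reads, such as that of Col3a1 with 22 treatment and 12 input reads, give an imprecise enrichment. The same holds for high values over few input reads, such as that of Col6a2 with 38 treatment and 6 input reads.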

Other observations

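In or within 5 kb of 18 family genes lay 25 peaks under the name of another gene. The TSS of that other gene was nearer than that of the family gene, except at Col4a1. There the peak centre was 199 bp from the reference TSS of Col4a1 and 220 bp from that of Col4a2, whose name it carries. Of the 25 peaks, 12 were centred between the ends of the family gene. In Lama5, peaks of 8.9 (7950 bp, 131 treatment reads), 8.39 and 3.65 were centred in intron 32, coding exon 48 and intron 74, and all carried the name of the microRNA gene Mir7005. Each of the former pair exceeded the 6.8 of the highest peak assigned to Lama5. In Col8a2 a peak of 15.04 over the last coding exon (93.4 treatment and 12.6 input reads) was assigned to Adprhl2, and it exceeded the 10.9 of the highest peak assigned to Col8a2. In Lamb2 a peak of 6050 bp with 109.4 treatment reads and an enrichment of 6.07 in coding exon 28 of 33 was assigned to Usp19. In Itgb4 one of 8050 bp and 6.16 in coding exon 36 of 40 was assigned to Galk1. Col2a1 had a peak of 8.85 in intron 50 of 52 under the name of Tmem106c. Inside Itga1, whose own assigned peak was on a distant LINE-1 element, a peak of 8.57 lay over coding exon 1 of Pelo, a gene within Itga1, 12139 bp from the TSS of Itga1.

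Of symbols close to the rule, Itga2b had peaks of 4.65 and 4.7, Itgbl1 had intronic peaks of 10.9 and 6.66, and the promoters of Itgb1bp1 and Col4a3bp had 8.14 and 6.83.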
